A study of Mus musculus with 9 samples.

Results

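The contractile genes of myoepithelial cells were measured in organoids grown from yMaSCs, in organoids grown from MaSCs and in LD cells, the luminal differentiated cells of the mouse mammary gland. The genes were chosen by name, with earlier results of these data known. They are Acta2, Myh11, Mylk, Cnn1, Tagln, Myl9, Tpm1, Tpm2, Oxtr and Actg2, and every probe set annotated to one of these symbols alone was read. This gave 10 genes of 18193 and 22 probe sets of 45037. Each kind of sample had 3 biological replicates, lettered A, B and C, so that 9 Affymetrix arrays were compared. The yMaSCs (YAP-induced MaSC-like cells) came from LD cells into which lentiviral vectors carried rtTA and a wild-type YAP transgene under a doxycycline-controlled promoter, and their organoids were passaged after doxycycline had been withdrawn. The organoids from MaSCs came from the sorted stem cell-enriched fraction of the gland. Both kinds of organoid were kept in Matrigel with EGF, bFGF, heparin, noggin and R-Spondin1. The LD cells were sorted as lineage-negative, EpCAM-high, CD49f-low and CD61-negative cells from the glands of adult virgin mice (C57BL/6J unless the methods specify otherwise) and were not cultured, so that a difference between organoids and LD cells cannot be told apart from one between cultured and fresh cells. The arrays read whole samples, and fewer cells of a type and less RNA per cell cannot be told apart.

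Myoepithelial cells form the basal layer of the mammary epithelium and squeeze milk out of the alveoli. They do so with a smooth muscle apparatus in which actin filaments, held by tropomyosin and calponin, slide along myosin after the regulatory light chain has been phosphorylated by myosin light chain kinase. The signal comes from oxytocin, whose receptor raises calcium in the cell. Luminal cells, which face the duct, lack most of this apparatus. In smooth muscle the genes are transcribed through serum response factor (SRF), which binds the CArG box, and through TEAD factors, which bind the MCAT element.

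In organoids of both kinds, 5 of the 10 genes rose against LD cells: Oxtr, Mylk, Myl9, Acta2 and Tpm2. Tpm1 fell, by less than 1 log2 on the probe set with its highest level. Cnn1, Myh11, Tagln and Actg2 did not pass the test. A gene was read on the probe set with its highest mean over all arrays, and was called where limma, fitted to all 45037 probe sets, gave it a Benjamini-Hochberg adjusted p below 0.05. Over all 18193 genes read in the same way, 21.3% were called higher and 14% lower in organoids from yMaSCs than in LD cells. In organoids from MaSCs 21.9% were called higher and 14.8% lower. The median log2 difference of the 10 genes was 2.23 in organoids from yMaSCs and 2.33 in organoids from MaSCs, beside a median of -0.013 and -0.023 over all genes. Both comparisons used the same LD arrays. Between the organoids none of the 10 genes was called.

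**Figure D1:**
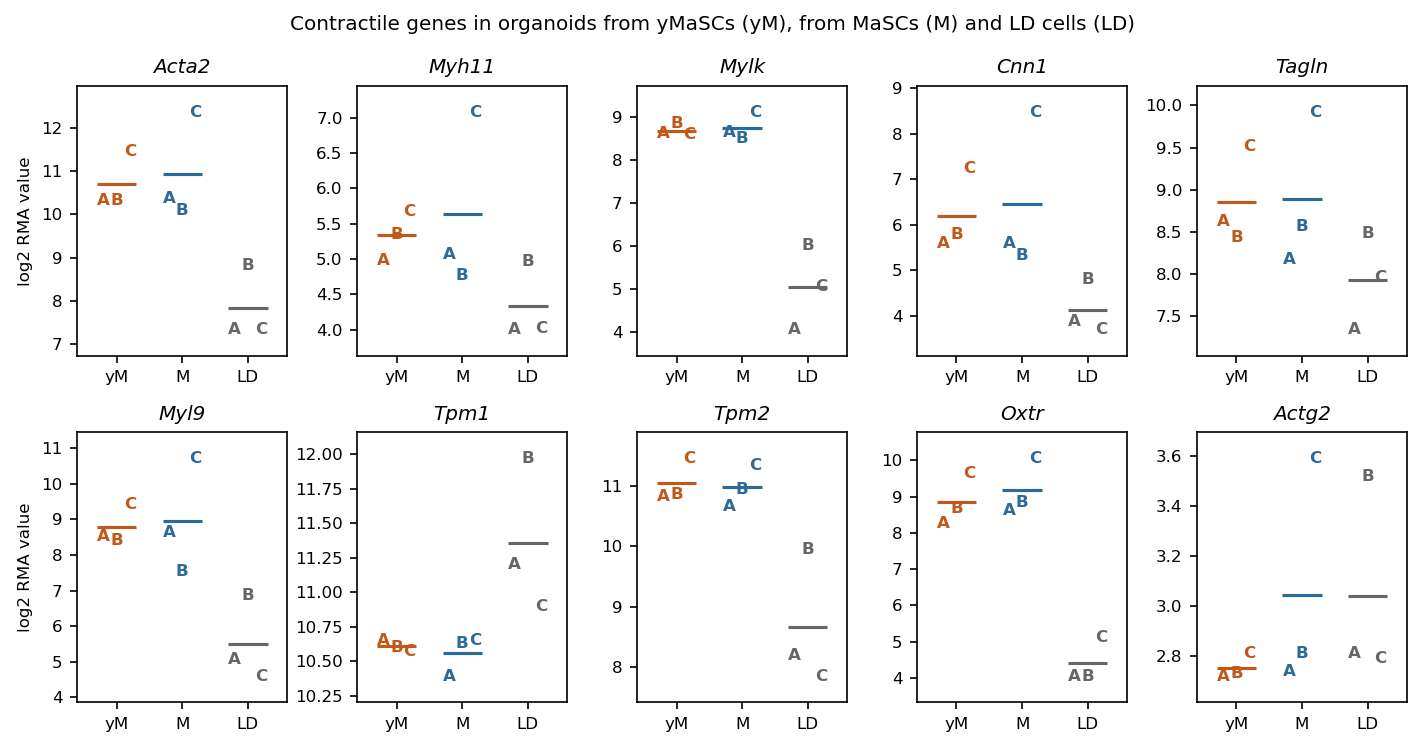
Deposited log2 RMA value of each contractile gene (vertical axis, scaled separately for each gene) in organoids from yMaSCs (yM), organoids from MaSCs (M) and LD cells (LD). Each letter is one array and each bar the mean of 3 arrays. For Oxtr, Mylk, Myl9, Acta2, Cnn1 and Tpm2 all 6 organoid arrays lie above all 3 LD arrays, and for Tpm1 they lie below.

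The samples were first read for their labels. The counts of each list stand beside shares over all genes of 21.3% called higher and 14% lower in organoids from yMaSCs. In organoids from MaSCs these shares were 21.9% and 14.8%. Of 15 basal epithelial genes, 8 rose and 0 fell where the organoids came from yMaSCs, and 7 rose and 1 (Krt17) fell in organoids from MaSCs, with Trp63, a transcription factor of basal cells, higher by 4.96 and 4.99 log2 and Snai2 by 3.96 and 3.93. Id4 was higher by 4.51 and 4.54 and Krt5, a basal keratin, by 2.56 and 2.63. These are the largest increases of the list. Krt14, also a basal keratin, had 1.64 (called) and 1.54 (limma adjusted p = 0.0562). Itga6 (-0.20 and -0.24), Itgb4 (-0.45 and -0.46), Vim (-0.48 and -0.48) and Ngfr (-0.14 and -0.06) went the other way and did not pass. Krt17 differed by -1.14 in organoids from yMaSCs and did not pass there. Of 13 luminal genes, 2 rose (Elf5 and Gata3) and 8 fell in both comparisons, but the luminal keratin Krt8 averaged 13.29 and 13.26 log2 in the organoids, against 14.19 in LD cells. Cited1 differed by -5.11 and -5.17 and Cldn4 by -3.37 and -3.53. Of 10 pericyte and vascular smooth muscle genes and of 12 skeletal muscle genes, 0 passed in either comparison, with a median log2 difference of -0.037 and -0.078 for the first list and of -0.033 and -0.032 for the second. LD cells, although sorted as lineage-negative, a gate meant to remove leukocytes, carried leukocyte transcripts. The mean level of 9 immune genes was 7.40, 7.42 and 6.80 log2 in LD arrays A, B and C, against 4.18 to 4.66 in organoids from yMaSCs and 4.37 to 4.50 in organoids from MaSCs, and 7 of them fell in both comparisons.

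LD array B stood apart from LD arrays A and C in the contractile genes, whose mean level was 6.94 log2 there and 5.79 and 5.93 in arrays A and C. The same array was higher in vascular and stromal genes. The mean level of 10 endothelial genes was 5.75 in LD array B, against 3.98 and 4.13 in LD arrays A and C, with Cdh5, a cadherin of endothelial cells, at 6.32 and Cldn5 at 7.57. The mean of 10 fibroblast genes was 7.49 against 6.30 and 5.92, with the collagen gene Col3a1 at 9.55. Among pericyte genes Rgs5 read 9.06 in array B, against 5.20 and 5.87 in arrays A and C, while the mean of that list was 5.66 against 5.07 and 5.26. The 15 basal genes had a mean of 6.94 in array B and 6.85 and 6.70 in A and C, but they did not move together. Id4 read 5.69 in array B against 3.80 and 3.70, and Lgr5 5.59 against 3.99 and 4.48. Krt14 (7.27 against 8.04 and 7.42) and Trp63 (3.60 against 3.94 and 3.98) were lowest in array B. The part of these transcripts in the contractile gene levels of LD cells was not tested. Without LD array B the same numbers of contractile genes were called, 5 higher and 1 lower in each comparison, and the values of genes that moved by more than 1.5-fold are given with the gene.

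Acta2 encodes smooth muscle alpha-actin, the main actin of the myoepithelial cell. Its probe set 1416454_s_at read 10.32, 10.32 and 11.45 log2 in arrays A, B and C of organoids from yMaSCs, 10.36, 10.10 and 12.37 in organoids from MaSCs, and 7.33, 8.82 and 7.33 in LD cells. The organoids of both kinds overlapped each other but not the LD cells, and array C was the highest of both kinds of organoid, while LD array B was the highest of the LD cells. Acta2 was 7.31-fold higher in organoids from yMaSCs than in LD cells (log2 difference 2.87 ± 0.65, SE, n = 3 arrays each, limma adjusted p = 0.00877), and in organoids from MaSCs it was 8.67-fold higher (3.12 ± 0.65, limma adjusted p = 0.00563). Without array C of the organoids from MaSCs, their log2 difference was 2.40. The other probe sets of the gene were low and were not called. Probe set 1444105_at averaged 3.45 log2 in organoids from yMaSCs, 3.57 in organoids from MaSCs and 2.91 in LD cells, and 1456658_at averaged 3.29, 3.22 and 3.42. The lower quartile of the arrays was 3.47 to 3.59 log2. Where both groups lie below it, a difference may be printed but was not read for size.

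The 250 bases before the RefSeq start of Acta2 held the letters of an MCAT element (CATTCC, or GGAATG on the other strand) and a pair of CArG boxes that each differ from the consensus by 1 base. They are shown because these are the sequences through which smooth muscle actin is known to be read, with the matches in capitals and positions counted back from the start of the gene in the table (GRCm38.p6, minus strand). Stretches of 30 bases are given, since the annotated span of the gene begins further upstream.
Acta2 MCAT, -146, chr19:34255502-34255531: gagcagaacagaGGAATGcagtggaagaga
Acta2 CArG box 1 base off, -84, chr19:34255438-34255467: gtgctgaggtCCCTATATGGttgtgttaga
Acta2 CArG box 1 base off, -34, chr19:34255388-34255417: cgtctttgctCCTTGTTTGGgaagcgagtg
Of 32851 such windows of 250 bases in the RefSeq table, 12.6% held MCAT on either strand, 18.6% held a CArG box with at most 1 base off and 1.47% held one with none off. A window was found for 7 of the 10 genes (Acta2, Mylk, Cnn1, Myl9, Tpm1, Tpm2 and Oxtr). MCAT was in 3 of the 7, a CArG box with at most 1 base off in 3, and an exact one in 1. A match describes the letters and is not a measured binding site.

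Actg2 encodes smooth muscle gamma-actin, the form of gut and bladder muscle. It was below the lower quartile on every array but array C of the organoids from MaSCs. Its 1 probe set read 2.72, 2.73 and 2.81 log2 in organoids from yMaSCs, 2.74, 2.81 and 3.59 in organoids from MaSCs, and 2.81, 3.52 and 2.79 in LD cells. The groups overlapped. The log2 difference from LD cells was -0.29 ± 0.26 (SE) in organoids from yMaSCs and 0.01 ± 0.26 in organoids from MaSCs, with limma adjusted p = 0.446 and 0.987. Of the other actins, Actg1, the cytoplasmic gamma-actin, fell by 0.30 and 0.38 log2. Actb, the cytoplasmic beta-actin, had differences of -0.01 and -0.05, Acta1 of skeletal muscle -0.25 and -0.52, and Actc1 of heart muscle -0.20 and -0.35, and these 3 did not pass.

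Myl9, the regulatory light chain of smooth muscle myosin, is the substrate that must be phosphorylated for contraction. It read 8.52, 8.40 and 9.43 log2 in organoids from yMaSCs, 8.62, 7.53 and 10.71 in organoids from MaSCs, and 5.06, 6.85 and 4.59 in LD cells. The organoids of both kinds overlapped each other but not the LD cells, and the arrays of a group lay far apart, with array C of the organoids from MaSCs more than 2 log2 above both others. Myl9 was 9.74-fold higher in organoids from yMaSCs than in LD cells (3.28 ± 0.82, SE, limma adjusted p = 0.014), and in organoids from MaSCs it was 10.95-fold higher (3.45 ± 0.82, limma adjusted p = 0.0108). Without LD array B the differences were 3.96 and 4.13. For the organoids from MaSCs the difference was 2.58 without their array C and 4.17 without their array B. Without LD array C the difference of organoids from yMaSCs, 2.83, missed the threshold (adjusted p = 0.0515), and so did 3.42 without both organoids of letter A (adjusted p = 0.0592). Myl9 was the only one of the 7 genes with an exact CArG box, at -161, and a second with 1 base off lies at -99. Both lie upstream of the annotated gene, and the 194 bases from -250 to -57 are shown (GRCm38.p6, plus strand, RefSeq, CArG boxes in capitals).
Myl9 upstream, chr2:156775214-156775407: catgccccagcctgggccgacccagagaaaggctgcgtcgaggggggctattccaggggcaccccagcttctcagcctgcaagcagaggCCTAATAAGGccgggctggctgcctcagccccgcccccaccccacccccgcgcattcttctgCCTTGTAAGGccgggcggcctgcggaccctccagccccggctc

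Myh11 is the heavy chain of smooth muscle myosin, the motor itself. Probe set 1448962_at read 4.98, 5.35 and 5.68 log2 in organoids from yMaSCs, 5.07, 4.77 and 7.08 in organoids from MaSCs, and 4.0, 4.97 and 4.02 in LD cells. Organoids and LD cells overlapped through LD array B, and most of the signal of the organoids from MaSCs came from array C. The log2 difference from LD cells was 1.01 ± 0.56 (SE) in organoids from yMaSCs (limma adjusted p = 0.212) and 1.31 ± 0.56 in organoids from MaSCs (limma adjusted p = 0.108). When array C of the organoids from MaSCs was left out of the fit, the difference of organoids from yMaSCs passed (adjusted p = 0.0314), and that of organoids from MaSCs was 0.59. Its second probe set, 1418122_at, stayed at 3.52 to 3.76 log2 on all arrays.

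Mylk, the myosin light chain kinase that switches the motor on, had the narrowest spread among the organoids of the genes that rose. Probe set 1425506_at read 8.61, 8.84 and 8.59 log2 in organoids from yMaSCs, 8.63, 8.50 and 9.11 in organoids from MaSCs, and 4.06, 6.01 and 5.06 in LD cells. No organoid array came within 2 log2 of an LD array. The gene was 12.4-fold higher in organoids from yMaSCs than in LD cells (3.64 ± 0.41, SE, limma adjusted p = 0.000231), and in organoids from MaSCs it was 13-fold higher (3.70 ± 0.41, limma adjusted p = 0.000198). Probe set 1425505_at gave 3.47 and 3.59, whereas 1425504_at, at about 4 log2 on every array, gave 0.26 and 0.29 and was not called. The window of Mylk, which starts inside the annotated gene (GRCm38.p6, plus strand), held 1 MCAT at -158 and no CArG box within 1 base.
Mylk MCAT, -158, chr16:34784780-34784809: tgcagttcagaaCATTCCctggtacgtgca

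Cnn1 encodes calponin, an actin-binding protein that restrains myosin. It read 5.58, 5.78 and 7.23 log2 in organoids from yMaSCs, 5.58, 5.32 and 8.48 in organoids from MaSCs, and 3.88, 4.79 and 3.69 in LD cells. All organoid arrays were above all LD arrays, yet arrays C of both kinds of organoid stood well above arrays A and B. The log2 difference from LD cells was 2.08 ± 0.81 (SE) in organoids from yMaSCs (limma adjusted p = 0.0826) and 2.34 ± 0.81 in organoids from MaSCs (limma adjusted p = 0.0534), so that neither passed. Without arrays C of both kinds of organoid the differences were smaller, 1.56 and 1.33, and both passed (limma adjusted p = 0.00902 and 0.0173). Cnn1 also passed in organoids from yMaSCs without array C of the organoids from MaSCs (limma adjusted p = 0.00981). So it did when organoids from yMaSCs and LD cells were fitted alone (0.0206). In organoids from MaSCs it passed without their array B (0.0386) or without array C of the organoids from yMaSCs (0.0478). There it also passed among probe sets above the median level (0.0347) and with the letter block over all arrays (0.0367). Cnn1 stayed uncalled in 21 of 24 alternatives for organoids from yMaSCs and in 19 of 24 for organoids from MaSCs. Over the alternatives run the adjusted p was 0.00902 to 1 in organoids from yMaSCs and 0.0173 to 0.707 in organoids from MaSCs.

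Tagln encodes transgelin (SM22), an actin cross-linking protein found in most smooth muscle. It read 8.62, 8.43 and 9.51 log2 in organoids from yMaSCs, 8.17, 8.57 and 9.92 in organoids from MaSCs, and 7.34, 8.48 and 7.96 in LD cells. LD array B lay among the organoid arrays A and B. The log2 difference was 0.93 ± 0.48 (SE) in organoids from yMaSCs and 0.96 ± 0.48 in organoids from MaSCs (limma adjusted p = 0.185 and 0.169), and without LD array B it was 1.20 and 1.24, with adjusted p = 0.131 and 0.119. Leaving out the organoid arrays C made it smaller, at 0.60 in organoids from yMaSCs without their array C and 0.44 in organoids from MaSCs without theirs (adjusted p = 0.426 and 0.455).

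The tropomyosin genes among the 10, Tpm1 and Tpm2, went opposite ways. Tpm4, a further tropomyosin outside the 10 genes, had differences of 0.11 and -0.06 and was not called. Tpm2 on probe set 1419738_a_at read 10.83, 10.85 and 11.45 log2 in organoids from yMaSCs, 10.66, 10.94 and 11.34 in organoids from MaSCs, and 8.19, 9.94 and 7.85 in LD cells. All organoid arrays were above LD array B, the nearest of the LD cells. The gene was 5.22-fold higher in organoids from yMaSCs (2.38 ± 0.48, SE, limma adjusted p = 0.00522), and in organoids from MaSCs it was 4.99-fold higher (2.32 ± 0.48, limma adjusted p = 0.00577), and without LD array B the differences were 3.02 and 2.96. Probe set 1425028_a_at gave 2.51 and 2.47, 1449577_x_at gave 0.44 (called) and 0.36 (adjusted p = 0.0673), and 1419739_at gave 0.12 and 0.06 and was not called. Probe sets whose names end in a_at, s_at or x_at may detect several transcripts or related genes.

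Tpm1 on probe set 1423721_at read 10.65, 10.60 and 10.57 log2 in organoids from yMaSCs, 10.39, 10.63 and 10.65 in organoids from MaSCs, and 11.20, 11.97 and 10.90 in LD cells. The organoid arrays were close together and all lay below the LD arrays. The gene fell by 0.75 log2 in organoids from yMaSCs, a 1.68-fold decrease (SE 0.24, limma adjusted p = 0.0392), and by 0.80 in organoids from MaSCs (1.74-fold, SE 0.24, limma adjusted p = 0.0294). Without LD array B the differences were -0.44 and -0.49, and with the mean of the gene's probe sets they were -1.11 and -1.21 (adjusted p = 0.00105 and 0.000644), and these passed. The call was lost in 12 of 24 alternatives for organoids from yMaSCs and in 8 of 24 for organoids from MaSCs. Leaving out any 1 array of the organoids from MaSCs gave an adjusted p of 0.0531 to 0.0582 for organoids from yMaSCs and 0.0543 to 0.0998 for organoids from MaSCs. For organoids from yMaSCs it was 0.0854 to 0.0977 without any 1 of their own arrays and 0.0585 without LD array A. The probe sets of Tpm1 differed in the size of the fall. Probe set 1423049_a_at gave -0.75 and -0.83. On 1456623_at the values were 5.77, 5.42 and 6.22 in organoids from yMaSCs and 5.62, 5.73 and 5.69 in organoids from MaSCs, against 8.97, 8.78 and 8.09 in LD cells, a fall by 2.81 log2 (7.01-fold) and by 2.93 (7.64-fold). The last probe set, 1447713_at, lay below the lower quartile of the arrays and gave -0.14 and -0.26. The files do not say which transcript of Tpm1 each probe set detects. Its window (GRCm38.p6, minus strand) lies within the annotated gene and held CArG boxes with 1 base off at -221 and -80 and MCAT at -56.
Tpm1 CArG box 1 base off, -221, chr9:67049415-67049444: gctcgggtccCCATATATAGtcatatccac
Tpm1 CArG box 1 base off, -80, chr9:67049274-67049303: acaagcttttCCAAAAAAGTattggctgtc
Tpm1 MCAT, -56, chr9:67049252-67049281: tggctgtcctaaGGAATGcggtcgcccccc

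Oxtr, the receptor that starts the contraction, had the largest difference of the 10 genes in both comparisons. Probe set 1440888_at read 8.26, 8.67 and 9.65 log2 in organoids from yMaSCs, 8.63, 8.83 and 10.05 in organoids from MaSCs, and 4.04, 4.04 and 5.10 in LD cells. More than 3 log2 separated the lowest organoid array from the highest LD array, which for this gene was LD array C and not B. The gene was 22.1-fold higher in organoids from yMaSCs than in LD cells (4.47 ± 0.48, SE, limma adjusted p = 0.000179), and in organoids from MaSCs it was 27.4-fold higher (4.78 ± 0.48, limma adjusted p = 0.000117). Of all 18193 genes, 26 had a larger increase in organoids from yMaSCs and 21 in organoids from MaSCs. Mylk was exceeded by 67 and 66 genes, Myl9 by 99 and 86, and Acta2 by 153 and 130. The second probe set of Oxtr, 1426000_at, rose by 0.67 and 0.71 log2. Its window held neither motif, nor did those of Cnn1 and Tpm2.

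Of 13 other measured genes of oxytocin receptor signaling, 3 rose and 4 fell in each comparison. Over all genes 21.3% were called higher and 14% lower in organoids from yMaSCs, and 21.9% and 14.8% in organoids from MaSCs. The G protein subunits Gnaq and Gna11, which couple the receptor to phospholipase C, rose by 0.72 and 0.99 log2 in organoids from yMaSCs and by 0.92 and 1.06 in organoids from MaSCs. Itpr2, a calcium release channel, rose by 1.69 and 1.79. Phospholipase C beta 1 (Plcb1) fell by 1.63 and 1.74, the calcium pump Atp2b1 by 1.42 and 1.69, the calcium pump Atp2a2 by 0.45 and 0.46, and Rgs2, which dampens Gq signaling, by 1.45 and 1.65.

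**Figure D2:**
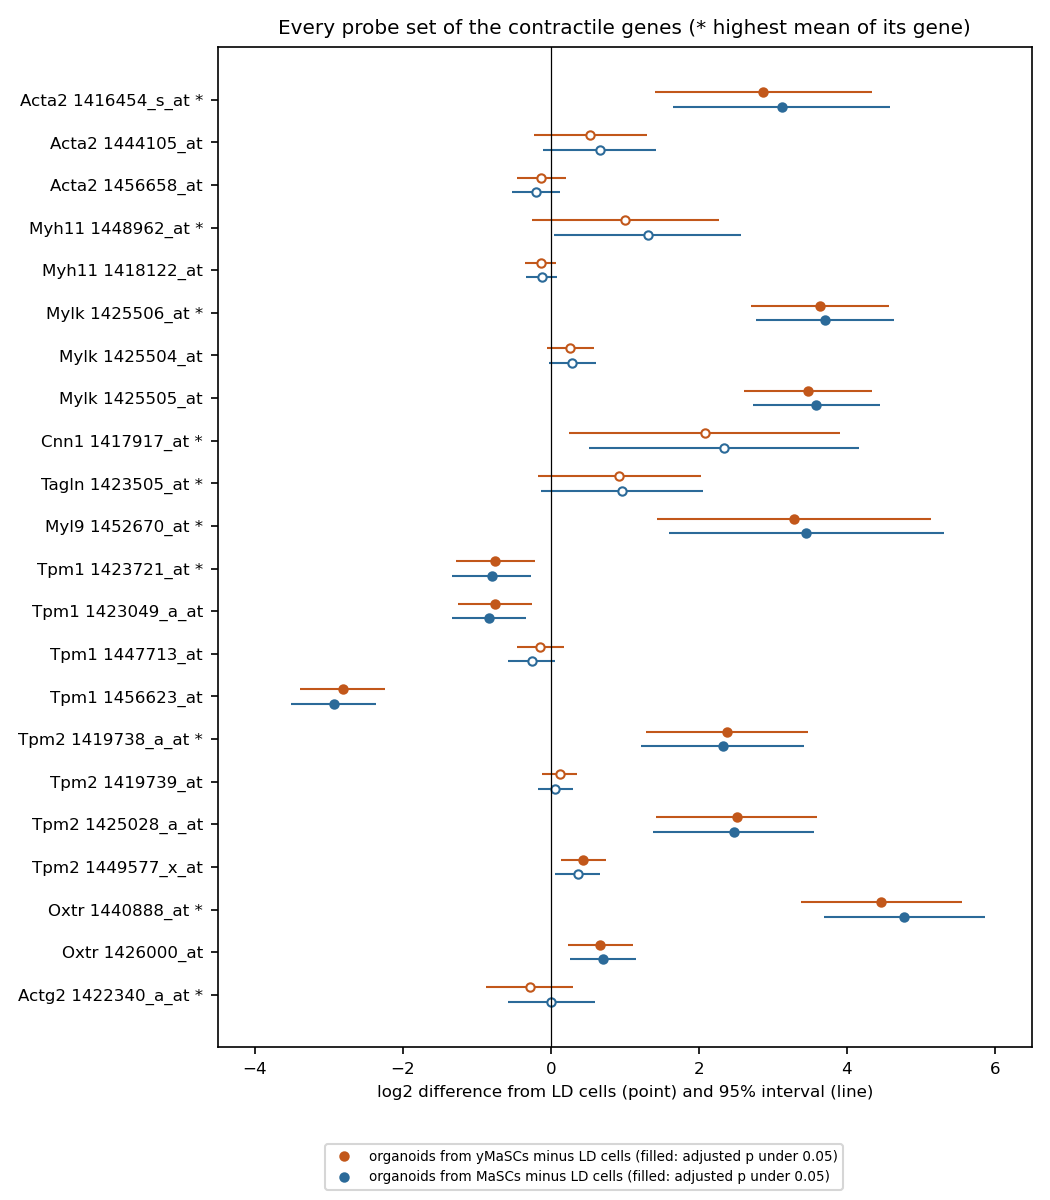
Log2 difference from LD cells of each of the 22 probe sets in organoids from yMaSCs (upper point of each row) and organoids from MaSCs (lower point), with the 95% interval of the limma fit. Filled points passed at an adjusted p under 0.05, and the asterisk marks the probe set with the highest mean of its gene. For Acta2, Mylk, Tpm1 and Tpm2 some probe sets lie near 0 while others of the gene were called.

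Counted by probe set, 9 of 22 rose, 3 fell and 10 were not called in organoids from yMaSCs, where 16.8% of all probe sets were called higher and 15% lower. In organoids from MaSCs 8 rose, 3 fell and 11 were not called, against 17.5% higher and 15.4% lower over all probe sets. No gene had probe sets called in both directions. When the probe sets of a gene were averaged first, the difference of Tpm1 was larger, as given above, and those of other genes were smaller and still passed for Oxtr (2.57 and 2.74), Mylk (2.46 and 2.53), Tpm2 (1.36 and 1.30) and Acta2 (1.09 and 1.19, with adjusted p = 0.0475 and 0.0329).

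**Figure D3:**
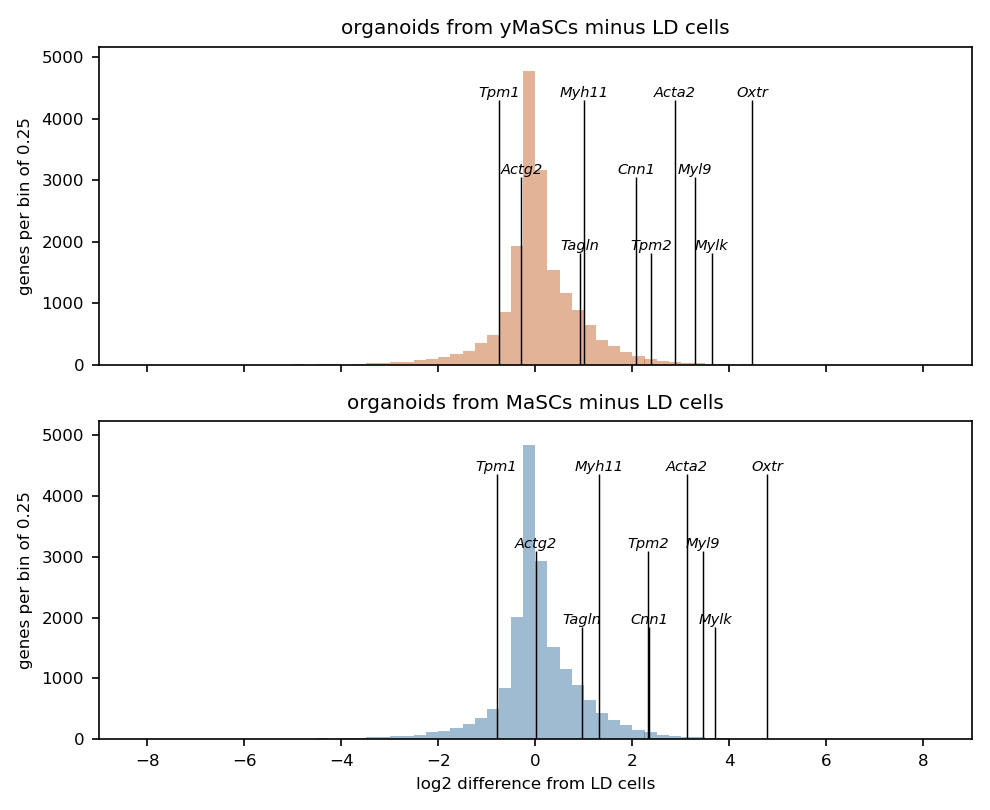
Number of genes (vertical axis) by log2 difference from LD cells (horizontal axis, bins of 0.25) for all 18193 genes, in organoids from yMaSCs (upper) and from MaSCs (lower), with the contractile genes as lines. Oxtr, Mylk, Myl9 and Acta2 lie in the far right tail in both, and Tpm1 and Actg2 do not.

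Other genes of the smooth muscle cytoskeleton did not move one way. Of 19 measured, 3 rose and 5 fell where the organoids came from yMaSCs, where 21.3% of all genes were called higher and 14% lower. In organoids from MaSCs 3 rose and 6 fell, beside 21.9% and 14.8% of all genes. The median log2 difference was -0.17 in both. Caldesmon (Cald1), which binds actin and tropomyosin, rose by 2.35 and 2.23 log2. Cnn2, a calponin of many cell types, rose by 1.20 and 1.10, and filamin A (Flna) by 0.72 and 0.74. Pdlim7 fell by 1.62 and 1.74, transgelin 2 (Tagln2) by 1.46 and 1.74, and vinculin (Vcl), which ties actin to adhesions, by 1.33 and 1.44. Smoothelin (Smtn), leiomodin 1 (Lmod1), desmin (Des) and synaptopodin 2 (Synpo2), which mark differentiated smooth muscle, were not called.

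Of 12 regulators of SRF-dependent transcription, 2 rose and 6 fell in each comparison. The shares over all genes were 21.3% higher and 14% lower in organoids from yMaSCs, and 21.9% and 14.8% in organoids from MaSCs. Mrtfb, a coactivator of SRF, rose by 1.59 and 1.76 log2, and Foxo4, a forkhead factor, by 0.99 and 1.11. Srf itself fell by 1.34 and 1.49, and Mrtfa, another of its coactivators, by 0.69 and 0.61. The LIM protein Fhl2 fell by 2.77 and 3.15, and the ternary complex factor Elk4 by 0.59 and 0.55. Klf4, a zinc finger factor that represses smooth muscle genes, had the largest difference of the list and fell by 5.32 and 5.92, with a mean of 6.44 log2 in organoids from yMaSCs and 5.84 in organoids from MaSCs, against 11.76 in LD cells. Tead1 fell by 0.63 and 0.74, and Tead4 had differences of -0.71 and -0.88 that did not pass. Myocardin (Myocd), the SRF coactivator of smooth muscle and heart, averaged 3.67 log2 in organoids from yMaSCs, 3.73 in organoids from MaSCs and 4.01 in LD cells, and its differences of -0.33 and -0.28 did not pass, like those of Elk1 (0.11 and 0.24) and Tgfb1i1 (0.34 and 0.52).

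Among the organoids the arrays of letter C were the highest for most contractile genes. The mean of the letter C organoids exceeded that of letters A and B by 2.29 log2 for Cnn1, by 1.80 for Myl9, by 1.64 for Acta2, by 1.34 for Myh11, by 1.27 for Tagln and by 1.25 for Oxtr. It was less for Tpm2 (0.58), Actg2 (0.45), Mylk (0.20) and Tpm1 (0.04). Mylk, second only to Oxtr in its difference from LD cells, was thus nearly level across the organoids. A limma F test of the 3 letters within the 6 organoid arrays called 1 of the 10 genes, Oxtr (adjusted p = 0.0118), where 4.13% of all genes were called. With any 1 of the 6 arrays left out the test called 0 of all probe sets, and the F of Oxtr was 59.9 to 129, against 91.0 with all 6. By probe set it called 2 of 22, adding Acta2 on 1444105_at (adjusted p = 0.0298), where 3.21% of all probe sets were called. At an unadjusted p under 0.05 there were 7 of the 10 genes, where 24.3% of all genes were, and Tagln, Acta2 and Cnn1 had adjusted p = 0.0522, 0.0527 and 0.0565. The 15 basal genes too had their highest mean level in the organoid arrays C, though Sox10 of that list was lowest there. That mean was 8.20, 7.89 and 8.59 log2 in arrays A, B and C of organoids from yMaSCs. In organoids from MaSCs it was 7.83, 7.92 and 8.84. What a letter marks is not stated in the labels.

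**Figure D4:**
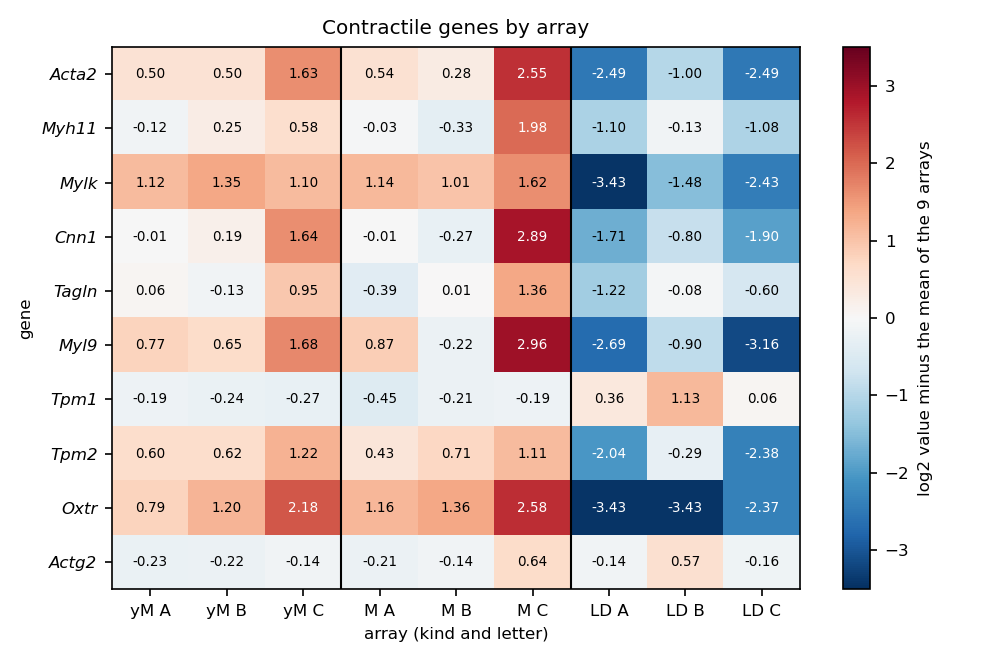
Log2 value of each contractile gene minus its mean over the 9 arrays (colour and printed value), by array, in organoids from yMaSCs (yM), organoids from MaSCs (M) and LD cells (LD). Array C of the organoids from MaSCs has the highest value for all genes except Tpm1 and Tpm2, and LD array B is the highest LD array for all genes except Oxtr.

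Between organoids from yMaSCs and organoids from MaSCs the 10 genes differed by -0.31 to 0.06 log2, and none was called (0% of all probe sets were). At an unadjusted p under 0.05 there were 0 of the 10 genes and 325 of all 45037 probe sets. The 95% interval of the difference lay within 1 log2 for 3 of the 10 genes, beside 93.3% of all genes. These were Mylk (-1.0 to 0.87), Tpm1 (-0.49 to 0.59) and Actg2 (-0.88 to 0.29), which is dim in all groups and was not read for size. For the other genes the interval was wide in this fit of all 9 arrays, which did not pair the letters. It ran between -2.09 and 1.56 for Cnn1, between -2.02 and 1.68 for Myl9, between -1.71 and 1.22 for Acta2, between -1.57 and 0.96 for Myh11, between -1.40 and 0.78 for Oxtr, between -1.13 and 1.06 for Tagln and between -1.03 and 1.16 for Tpm2, and each of these intervals includes a 2-fold difference between the organoids in at least 1 direction.

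**Figure D5:**
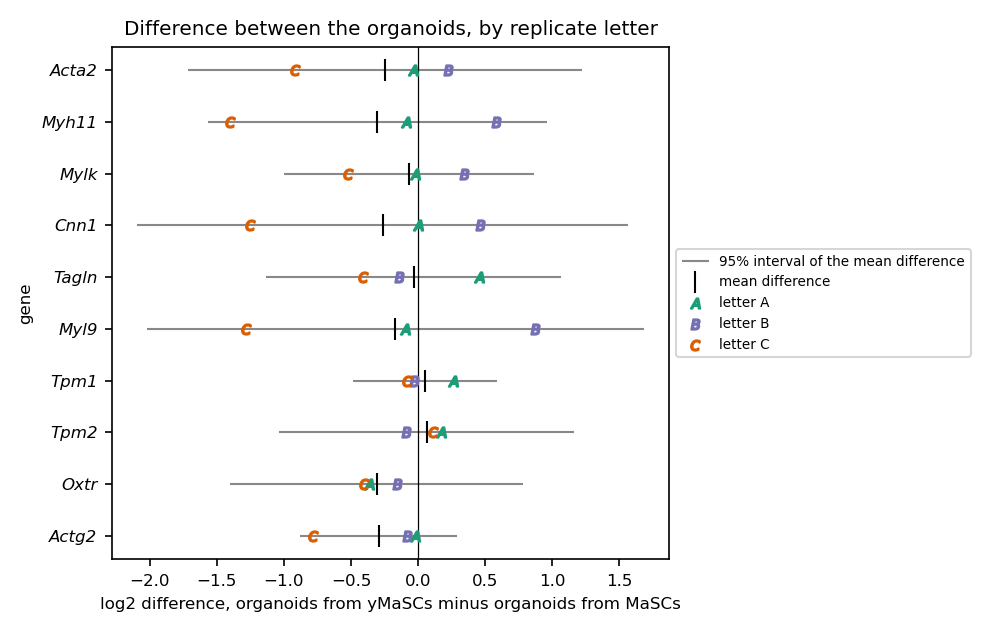
Log2 difference of organoids from yMaSCs minus organoids from MaSCs for each contractile gene (horizontal axis), with the mean of the 3 letters (tick), its 95% interval in the unpaired limma fit (line) and the difference of each pair of the same letter (A, B, C). For Acta2, Myh11, Cnn1 and Myl9 the letter C pair lies at -0.92 to -1.40, while letter B lies above 0.

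The pairs of one letter did not agree in sign for most genes. Within letter C the organoids from yMaSCs were lower than the organoids from MaSCs by -1.40 log2 for Myh11, -1.28 for Myl9, -1.25 for Cnn1 and -0.92 for Acta2, while within letter B the same genes differed by 0.58, 0.87, 0.46 and 0.22. Oxtr (-0.37, -0.16 and -0.40) and the dim Actg2 (-0.02, -0.08 and -0.78) had the same sign in every pair. With the letter as a replicate block in the organoid arrays alone, the Oxtr difference of -0.31 had an interval of -0.53 to -0.09 and an unadjusted p of 0.0153 in limma (adjusted p = 0.966), the only 1 of the 10 genes under 0.05, where 1646 of all probe sets were. With the letter as a random block the same difference had an interval of -1.09 to 0.47 and an unadjusted p of 0.375 in limma, and 0 of the 10 genes were under 0.05. Both fits gave 0 calls, and the interval lay within 1 log2 for 7 of the 10 genes with the block and for 5 with the random block. With the block it ran from -0.80 to 0.31 for Acta2, -0.46 to 0.39 for Tagln and -0.16 to 0.29 for Tpm2. It still reached beyond 1 log2 for Myh11 (-1.20 to 0.59), Myl9 (-1.12 to 0.78) and Cnn1 (-1.06 to 0.53). For Acta2 the random block gave -1.33 to 0.84.

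The genes outside the list whose levels over the 9 arrays were most like the mean of the 10 scaled contractile genes were C1s1, Mecom, Bgn, Fkbp7 and Trnp1 (Pearson's r = 0.98, 0.97, 0.97, 0.96 and 0.96, among 3756 genes above the median level and with an SD over 0.5 log2). C1s1 read 7.08, 7.05 and 8.76 log2 in organoids from yMaSCs, 7.76, 6.78 and 9.94 in organoids from MaSCs, and 4.49, 6.81 and 4.15 in LD cells, so that it too was highest in organoid arrays C and, among LD cells, in array B. Over the 6 organoid arrays alone the most alike of 815 genes were Serpinf1, Lmo1, Tgif2, Fgfr2 and Chek1 (r = 0.99, 0.99, 0.99, 0.98 and 0.98). The sets have no gene in common. These correlations describe a few arrays that share their groups and letters.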

How the data were processed

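The authors deposited log2 values made by RMA, which corrects the background, quantile-normalizes the arrays and summarizes each probe set. Its version is not given in the sources used. The number of arrays limits the precision. The table held 0 columns of other samples. The arrays had lower quartiles of 3.47 to 3.59 and upper quartiles of 7.39 to 7.59 log2. After 64 control probe sets were left out, 34945 probe sets had 1 gene in the array's annotation, 932 had several and 9160 had none; 34741 matched a RefSeq table by gene identifier. No filter on low values was applied.

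With R 4.3.3 and limma 3.58.1, the 3 groups were fitted in one model over 9 arrays, two-sided, with Benjamini-Hochberg adjustment over all 45037 probe sets. The replicates are biological by their labels, and the p-values set a difference against the spread between arrays within the groups. That spread was pooled over the 3 groups, and the main fit took organoids of the same letter as independent. The letters paired the organoids: deviations of the same letter correlated at r = 0.554, 0.523 and 0.612 between the organoids, and at -0.07 to 0.03 with LD cells. Calculations were tested on simulated data.

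The genes, 11 further lists and the alternatives were chosen with earlier results of these data known. A further list is not reported here. Named are all 10 contractile genes, up to 4 genes of each list with the largest differences that passed in both comparisons, and all actins and SRF regulators listed; other list genes named were chosen after their values were seen. Of the lists not described elsewhere, 1 of 10 endothelial genes (Vwf) fell in both comparisons. Of 10 fibroblast genes, 1 rose (Pdgfra) in organoids from yMaSCs and 2 (Pdgfra and Postn) in organoids from MaSCs, and 4 fell in each. Beside these counts, 21.3% of all genes were called higher and 14% lower in organoids from yMaSCs, and 21.9% and 14.8% in organoids from MaSCs. Alternatives were other normalizations, filters, priors, array weights, blocks by letter, the mean of a gene's probe sets, a 2-fold limit, and leaving out arrays or letters.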

Additional observations from a re-analysis of the deposited data

How the results depend on the processing

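With 3 arrays a group the intervals are wide for genes whose arrays lie far apart, and differences between groups that are both dim are not read for size. The 5 increases kept their direction under every alternative in both comparisons. A limma test against a 2-fold change called 2 and 2 genes higher (Mylk and Oxtr) and 0 lower.

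The call of Tpm1 changed with several settings. The count of genes called lower was 0 with the compared groups alone in both comparisons and 0 without both organoids of letter A, B or C. With single arrays left out it was 0 to 1 in each comparison. The total of probe sets called in organoids from yMaSCs and from MaSCs was 6530 and 6790 with 1 probe set a gene, 6629 and 6859 with the mean of a gene's probe sets (fewer features), and 1936 and 2111 against a 2-fold change. It was 9489 in organoids from yMaSCs without letter B.

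Within the organoids the letter test called 5 of the 10 genes and 2275 probe sets with no covariate, 3 genes with cyclic loess, and 3 genes and 2513 probe sets with a trended and robust prior. With single arrays left out it called 0 genes and 0 probe sets.

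Signs that turned belong to differences that were not called. Against LD cells, Actg2 in organoids from MaSCs was -0.0067 with a common median, -0.038 with array weights, -0.265 without letter C and -0.265 to 0.25 with single arrays left out. Between the organoids, array weights gave 0.054 for Mylk and 0.11 for Tagln. Leaving out letter A gave -0.055 for Tpm1 and letter B 0.02 for Tagln. Leaving out letter C gave 0.09 for Acta2, 0.25 for Myh11, 0.16 for Mylk, 0.23 for Cnn1, 0.16 for Tagln and 0.39 for Myl9. With single arrays left out the difference between the organoids ran over -0.67 to 0.47 for Acta2, -0.74 to 0.42 for Myh11, -0.19 to 0.12 for Mylk, -0.83 to 0.75 for Cnn1, -0.39 to 0.48 for Tagln, -0.88 to 0.71 for Myl9, -0.033 to 0.097 for Tpm1, -0.14 to 0.24 for Tpm2 and -0.71 to 0.13 for Oxtr. These upper ends all came without array C of the organoids from MaSCs. No block by letter changed a call between the organoids, and with the block over all arrays Cnn1 passed in organoids from MaSCs (adjusted p = 0.0367).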
